A study of Danio rerio with 4 samples.

Results

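The 8 genes described here encode the myosin heavy chains, the myosin light chains and the cardiac myosin-binding protein of the zebrafish heart. They were taken by name from the authors' deposited table of 1 comparison, in which all 8 of 8 names were found among 14962 genes: myl7, cmlc1, mybpc3, myh6, vmhc, vmhcl, myh7ba and myh7bb. The sample labels, which belong to the count libraries of the series, describe hearts of adult fish of the Ekkwill strain. Those fish had been injected daily over 3 days with alfacalcidol or with vehicle, and the hearts were taken 24 hours after the last injection. The authors' deposited table names no samples, so that the labels also describe its hearts was assumed. Alfacalcidol is a synthetic precursor of active vitamin D that becomes active after hydroxylation in the liver. The comparison asks which heart transcripts differ after this vitamin D analog was given. The strain, the stage and the injection schedule were shared by both groups, and the labels do not say whether a library is 1 heart or a pool. Besides the table, the series holds read counts of 2 libraries labelled alfacalcidol and 2 labelled vehicle, with 31427486 to 39572163 counts each.

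Muscle contracts when myosin heads on the thick filament pull on actin. Each myosin molecule is built of a pair of heavy chains, which carry the motor and the rod, and each motor neck binds an essential and a regulatory light chain. In zebrafish the heavy chains divide the heart by chamber: myh6 (also called amhc) marks the atrium and vmhc the ventricle. The light chain genes myl7 (also called cmlc2) and cmlc1 are expressed in both chambers, and the myl7 promoter is widely used to drive transgenes in cardiomyocytes. The protein encoded by mybpc3 binds the rod of myosin and tunes cross-bridge formation. In humans its gene and that of the ventricular heavy chain are the genes most often altered in hypertrophic cardiomyopathy.

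The 2 sources hold different RNA and are given apart. In the authors' deposited table all 17 matched members of a list of other cardiomyocyte genes were above 10 CPM (read counts scaled to a common library total), from 16.2 CPM for gata4 to 7568 CPM for tnnt2a, while 9 of 13 matched skeletal muscle genes were below 10 CPM. The summed level of those 13 skeletal muscle genes was 4892 CPM in the authors' deposited table, mostly from eno3, ckma and acta1b at 1940, 1492 and 1410 CPM. In the count libraries that sum was 60655 and 53973 CPM with the alfacalcidol label and 57445 and 61010 CPM with the vehicle label. The sum of the 17 other cardiomyocyte genes came to 36860 CPM in the authors' deposited table, against 3950 and 3778 CPM with the alfacalcidol label and 3932 and 3872 CPM with the vehicle label. In the libraries that sum came mostly from the titin genes, with ttn.2 at 2325 to 2444 CPM and ttn.1 at 1031 to 1068 CPM. The cartilage collagen gene col2a1a was at 5986 and 5828 CPM with the alfacalcidol label and at 5967 and 5706 CPM with the vehicle label, against 2.69 CPM in the authors' deposited table. The label heart is therefore borne out by markers in the table and not in the count libraries, which are called by their labels below.

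In the authors' deposited table the atrial heavy chain gene myh6 was the only one of the 8 that passed an adjusted p of 0.05. It was lower by the table's sign, with a log2 fold change of -0.65, a level 36.3% lower. The light chain genes myl7 and cmlc1 stood at -0.45 and -0.39 on the log2 scale, mybpc3 at -0.31, and the ventricular heavy chain genes vmhcl and vmhc at -0.20 and -0.098, none of them called in the authors' deposited table. In all, 7 of the 8 values were negative and the median was -0.26. Over all genes of the authors' deposited table, 20.1% were called, 9.22% lower and 10.9% higher, so 1 call among 8 genes (12.5%) is near that background. The table gives no values per library or group and no standard errors, and it does not name the numerator of its fold change. The vitamin D target gene cyp24a1 has a log2 fold change of 1.53 there, at a low level of 3.69 CPM (edgeR adjusted p 8.19e-05). A positive value was therefore read as higher with alfacalcidol, and every direction from the table rests on that reading of a single gene. In the count libraries cyp24a1 had 6.77 and 3.08 CPM with the alfacalcidol label and 3.50 and 9.69 CPM with the vehicle label, so the labels overlapped.

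The regulatory light chain is encoded by myl7 (chromosome 8, 40417522 to 40425350, GRCz10). It stood at 20203 CPM as the mean of the authors' deposited table, 2.02% of reads, with a log2 fold change of -0.45 and an edgeR adjusted p of 0.0501, just outside the threshold. Its unadjusted p in the authors' deposited table was 0.0101. The essential light chain gene cmlc1 (chromosome 5, 63486421 to 63487216) had 10133 CPM, a log2 fold change of -0.39 and an edgeR adjusted p of 0.101 in the authors' deposited table. Its annotated span is 796 bases, and whether that covers the whole gene was not checked. The log2 fold changes of the 2 light chain genes were close, with a difference of -0.061 (myl7 minus cmlc1). The binding protein gene mybpc3 (chromosome 7, 31567170 to 31628058) had 7083 CPM, a log2 fold change of -0.31 and an edgeR adjusted p of 0.219 in the authors' deposited table.

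Among the heavy chains, myh6 (chromosome 20, 53772085 to 53778019) stood at 96.3 CPM in the authors' deposited table, with an edgeR adjusted p of 0.00343. It took 0.215% of the reads of myh6, vmhc and vmhcl together there. Its annotated span is 5935 bases, against 13392 for vmhc and 15320 for vmhcl, and whether that span covers the whole gene was not checked. The ventricular gene vmhcl (chromosome 2, 24618673 to 24633992) had 43688 CPM, or 4.37% of reads, and an edgeR adjusted p of 0.489 in the authors' deposited table. The neighbour of vmhcl, vmhc (chromosome 2, 24600869 to 24614260) had 951 CPM and an edgeR adjusted p of 0.809 in the authors' deposited table. The pair lie 4412 bases apart, and the sources used here do not say how reads that match both were counted, so the split between these 2 genes is uncertain. CPM counts reads and is not per length, so it gives a gene's share of reads and no order of transcript levels between genes.

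Set side by side, the atrial and ventricular heavy chains differed in the table's value. The log2 fold change of myh6 was below that of vmhc (a difference of -0.55) and that of vmhcl (a difference of -0.45), both from the authors' deposited table, while vmhcl minus vmhc was -0.11. The table has no values per library, so these differences between genes could not be tested. Of genes associated with a chamber, nr2f1a, which encodes a nuclear receptor of atrial identity, had a log2 fold change of 0.12 at 3.82 CPM (edgeR adjusted p 0.836) in the authors' deposited table. The gene hey2, which encodes a repressor that marks the ventricle in zebrafish, was lower, with -0.95 on the log2 scale and an edgeR adjusted p of 7.61e-05 at 18.2 CPM in the authors' deposited table. In RNA of whole hearts, fewer cells of a type and less RNA per cell cannot be told apart.

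The paralogs myh7ba and myh7bb, whose mammalian counterpart encodes a heavy chain of slow muscle and heart and carries a microRNA in an intron, were not called. For myh7ba (chromosome 11, 24945111 to 24976035) the authors' deposited table has 555 CPM and a log2 fold change of -0.17, with an edgeR adjusted p of 0.656. For myh7bb (chromosome 23, 18796372 to 18830994) the authors' deposited table gives 499 CPM and a log2 fold change of 0.060, the single positive value among the 8, with an edgeR adjusted p of 0.910.

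**Figure D1:**
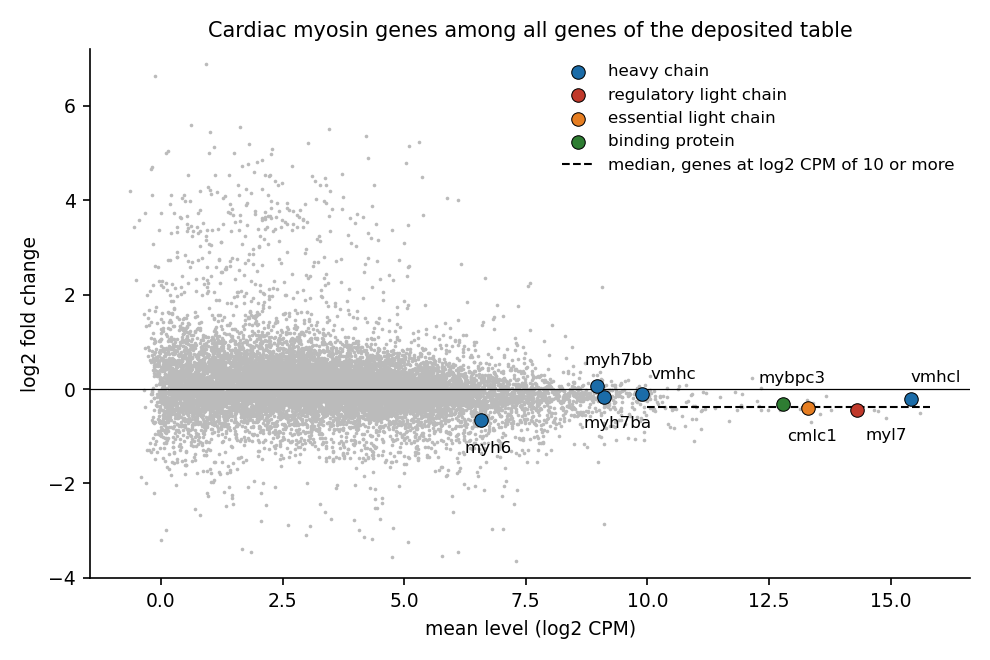
Log2 fold change (y axis) against mean level in log2 CPM (x axis) for the 14962 genes of the authors' deposited table, with the 8 cardiac myosin genes in colour by role and a dashed line at the median of genes at a log2 CPM of 10 or more. The 4 of the 8 genes at a log2 CPM of 10 or more lie between -0.45 and -0.20, around the dashed line at -0.38. The gene myh6 lies at -0.65, with a log2 CPM of 6.59, and is not among the genes of that line.

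The negative values of the abundant chains were shared by other abundant genes. Of the 87 genes at a log2 CPM of 10 or more in the authors' deposited table, 80 had a negative value (92%), 16 were called lower (18.4%) and 0 higher (0%). Leaving out the cardiac myosin genes at that level, 76 of 83 had a negative value and 16 were called lower (19.3%). Over all genes 49% had a negative value, 9.22% were called lower and 10.9% higher. The median log2 fold change of the 87 genes was -0.38, where the median of all genes was 0.0086. The called ones included, with values of the authors' deposited table, the glycolytic genes gapdh at -0.70 and aldoaa at -0.67, the natriuretic peptide gene nppa at -1.09 and the mitochondrial gene mt-co2 at -0.61. Relative to that median of abundant genes, myl7 was at -0.076, cmlc1 at -0.015, mybpc3 at 0.066 and vmhcl at 0.17. On the same scale vmhc, myh7ba and myh7bb came to 0.28, 0.20 and 0.44, and myh6 to -0.27, though these 4 genes are themselves below that level. The sign of mybpc3, vmhcl, vmhc and myh7ba thus depends on the genes taken as the zero.

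The abundant genes nearest to myl7 in log2 fold change in the authors' deposited table, out of 86 candidates, were mt-atp6, hspb7 and IDH2, at -0.45, -0.46 and -0.45. Those nearest to vmhcl were, in the authors' deposited table, msna, pdha1a and mt-nd1 with values of -0.21, -0.22 and -0.22. The likeness is closeness of 1 value, since the table gives no profile over libraries.

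Of the other myosin genes, 20 of 34 listed names were matched to 21 gene IDs, of which the authors' deposited table calls 3 lower and 0 higher (14.3%, against 20.1% of all its genes). The median of the 21 values was -0.091 on the log2 scale. Among the names without a match, myh7 and smyhc3 are other names of vmhc. The smooth muscle heavy chain gene myh11a was lower with a log2 fold change of -1.36 (edgeR adjusted p 1.74e-08, 69.6 CPM) in the authors' deposited table. The smooth muscle and non-muscle light chain gene myl9a was lower with one of -0.52 (edgeR adjusted p 0.0210, 318 CPM) in the same table of the authors. The non-muscle heavy chain gene myh9a was lower at -0.61 (edgeR adjusted p 0.0242) with 8.86 CPM in the authors' deposited table. Among those without a call, myl9b, myh10 and myl12.1 had the most reads, and the authors' deposited table gives them -0.16, 0.29 and -0.076 on the log2 scale. The fast skeletal myosin genes myhz2, myl1, mylpfa and mylz3 stood between 1.07 and 3.68 CPM there and were not called.

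A list of thick filament partners held genes whose products phosphorylate, fold, bind or cross-link myosin. Of its 30 names 24 were matched, and the authors' deposited table calls 4 of these lower and 0 higher (16.7%, against 20.1% of all genes), with a median of -0.23. The gene mylk3, which encodes the cardiac kinase that phosphorylates the regulatory light chain, had a log2 fold change of -1.17 at 549 CPM (edgeR adjusted p 8.99e-05) in the authors' deposited table. Its family member mylk4a had a log2 fold change of -0.82 at 35.8 CPM (edgeR adjusted p 0.00294), whereas mylk4b, with 569 CPM, had -0.34 without a call (edgeR adjusted p 0.369), both in the authors' deposited table. The gene mylk2, which is not on the list and was chosen after its value was seen, was lower by its value of -0.55 at 420 CPM (edgeR adjusted p 0.0158) in the authors' deposited table. Of the M-band genes, which encode the cross-links at the middle of the thick filament, myom2a was lower by its value of -1.03 at 777 CPM (edgeR adjusted p 3.81e-07) in the authors' deposited table. Its relative myom1b had -0.47 at 2201 CPM with an edgeR adjusted p of 0.0523 in the authors' deposited table, and obscnb, which encodes the giant linker obscurin, had -0.18. The fourth call was fhl2b, a LIM-domain gene, with a log2 fold change of -1.94 at 3.78 CPM (edgeR adjusted p 3.99e-11) in the authors' deposited table.

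**Figure D2:**
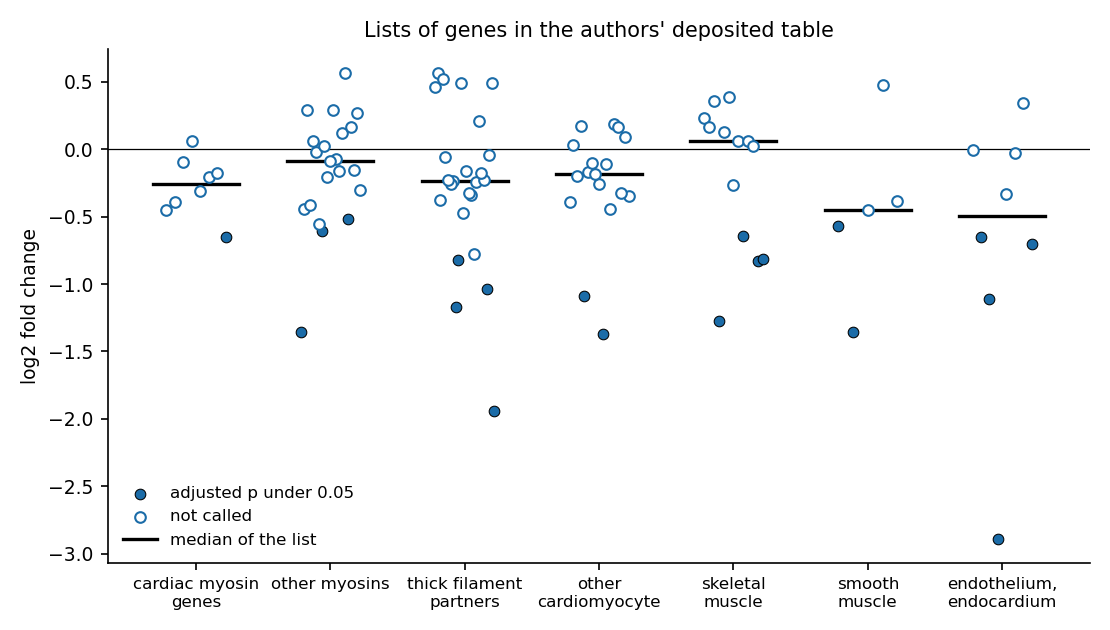
Log2 fold change in the authors' deposited table (y axis) for each gene of 7 lists (x axis), with filled points for an adjusted p under 0.05, open points for genes not called, and a bar at the list's median. All filled points lie below 0, among them 1 of 8 cardiac myosin genes, 3 of 21 other myosins and 4 of 24 thick filament partners.

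Markers of smooth muscle, endothelium and erythrocytes also had negative medians. Of the other cardiomyocyte genes, the authors' deposited table calls 2 of 17 lower and 0 higher, both natriuretic peptide genes, and the median was -0.18. Of 5 smooth muscle genes 2 were lower, of 8 endothelial and endocardial genes 4 were lower, of 7 gene IDs of erythrocyte genes 2 were lower, and none of these was higher in the authors' deposited table. The shares called in these 3 short lists were 40%, 50% and 28.6%, and 11.8% for the other cardiomyocyte genes, beside 9.22% lower and 20.1% called over all genes. The medians of the 3 lists were -0.45, -0.49 and -0.43. Of 7 epicardial and fibroblast genes 0 were called at a median of 0.12 in the authors' deposited table. Of 13 skeletal muscle genes ckmb, ckma, acta1b and eno3 were lower (30.8% called) and 0 higher. The median of that list was 0.060, and only 5 of its 13 values were negative. In the authors' deposited table ckma, acta1b and eno3 stood at 1410 to 1940 CPM and ckmb at 19.5 CPM. Which cells the reads of these genes came from was not tested. The cartilage list, with 2 of 7 members matched, had 0 calls at a median of 0.52 in the authors' deposited table. The epidermis list, with 4 of 7 matched, had a median of 0.019 there and 25% called. Its krt4 was lower at -1.25, while krt5 at 0.87, krtt1c19e at 0.088 and tp63 at -0.050 were not called. The part of these cell types in the values of the myosin genes was not tested.

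**Figure D3:**
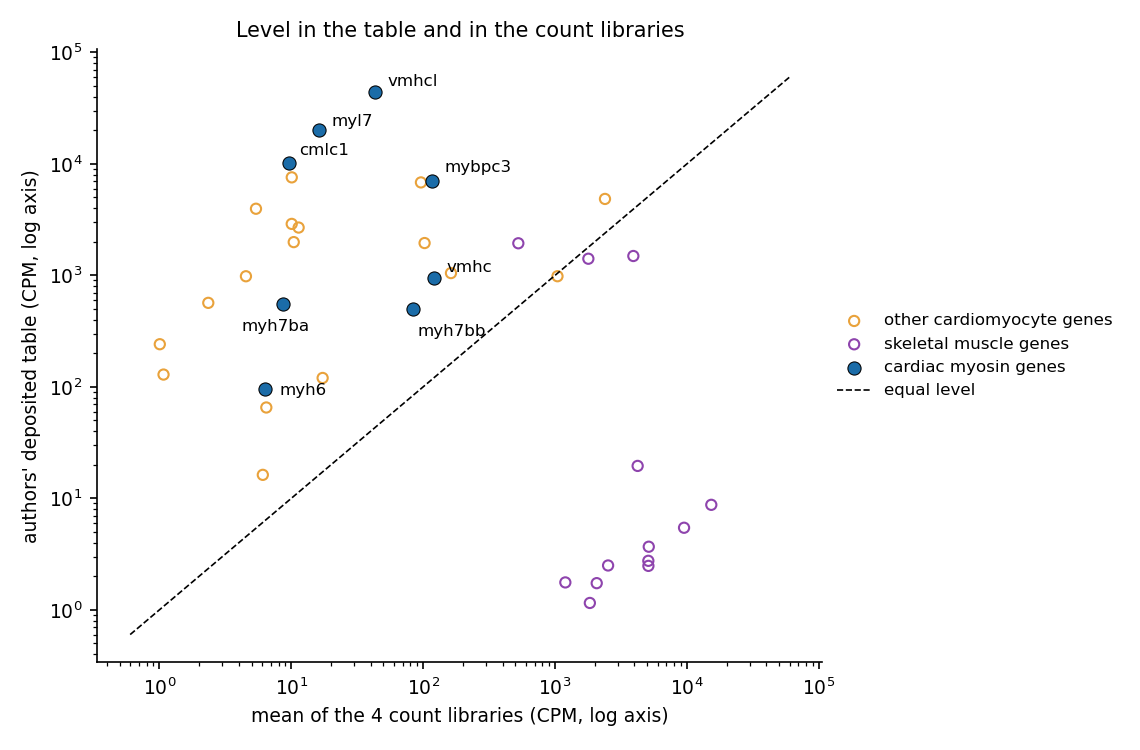
Level in the authors' deposited table (y axis, CPM, log axis) against the mean of the 4 count libraries (x axis, CPM, log axis) for the 8 cardiac myosin genes, 17 other cardiomyocyte genes and 13 skeletal muscle genes, with a dashed line at equal level. All 8 cardiac myosin genes lie above the line, from 5.91-fold for myh7bb to 1249-fold for myl7, and 12 of the 13 skeletal muscle genes lie below it.

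In the count libraries the same 8 genes were lower than in the table, by unequal amounts. The level in the authors' deposited table was 1249-fold that of the libraries' mean for myl7, 1059-fold for cmlc1 and 1019-fold for vmhcl. It was 64.3-fold for myh7ba and 60.2-fold for mybpc3, and 15.2-fold, 7.87-fold and 5.91-fold for myh6, vmhc and myh7bb in the authors' deposited table over the libraries. The same ratio over the 17 other cardiomyocyte genes ran from 0.941-fold for ttn.1 and 2.03-fold for ttn.2 through 10.1-fold for tbx20 to 751-fold for tnnt2a. Ratios between chains differed accordingly. Gene length remains in each ratio and cancels only between the 2 sources, if both counted reads over the same gene models. There were 45.9 reads of vmhcl for each of vmhc in the authors' deposited table, against 0.326 and 0.405 in the libraries labelled alfacalcidol and 0.380 and 0.327 in those labelled vehicle. As stated above, the split of reads between these neighbouring genes is uncertain. For myh7bb over myh7ba the ratio was 0.899 in the authors' deposited table, against 10.2 and 9.01 with the alfacalcidol label and 9.49 and 10.3 with the vehicle label. The ratio of myl7 to cmlc1 was closer, at 1.99 in the authors' deposited table, 1.56 and 1.77 with the alfacalcidol label and 2.02 and 1.48 with the vehicle label.

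Between the labels of the count libraries no difference was detected in any of the 8 genes, and the groups overlapped in all 8. Over all genes the CPM of the labels did not overlap in 21% of 22428. The edgeR quasi-likelihood test called 0 of 22428 genes (0%), with 128 at an unadjusted p under 0.05 (0.571%), and DESeq2 called 0 with 20. For the 8 genes edgeR gave adjusted p-values of 1.0, and 0 had an unadjusted p under 0.05. These p-values measure the spread between 2 libraries per label, which may be technical. That spread had a structure across labels, since replicate 1 minus 2 correlated at -0.471 across genes between them. Fewer genes passed an unadjusted p of 0.05 than evenly spread p-values would give. The test is thus conservative here, its standard errors and intervals may be too wide, and the lack of calls does not show equal levels.

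The light chain gene myl7 had 15.1 and 17.1 CPM in the libraries labelled alfacalcidol, against 16.6 and 15.9 CPM in those labelled vehicle. The vehicle values fell inside the alfacalcidol range, and the log2 fold change was -0.018 ± 0.10 (SE), with a 95% interval of -0.26 to 0.23. For cmlc1 the levels were 9.66 and 9.63 CPM with the alfacalcidol label and 8.21 and 10.8 CPM with the vehicle label, a log2 fold change of 0.022 ± 0.15 (interval -0.35 to 0.39). Here the vehicle libraries spanned the alfacalcidol ones. The gene mybpc3 had 121.6 and 109.6 CPM with the alfacalcidol label and 117.6 and 121.5 CPM with the vehicle label (log2 fold change -0.049 ± 0.083, interval -0.25 to 0.15). Alfacalcidol replicate 2 was the lowest of the 4.

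For myh6 the level rested on 198 and 289 counts in the libraries labelled alfacalcidol and 191 and 213 in those labelled vehicle. That is 5.85 and 7.28 CPM against 6.08 and 6.13 CPM, a log2 fold change of 0.11 ± 0.16 (interval -0.28 to 0.49). Alfacalcidol replicate 2 was the highest and replicate 1 the lowest. The heavy chain gene vmhcl had 46.5 and 41.2 CPM with the alfacalcidol label and 40.6 and 43.2 CPM with the vehicle label (log2 fold change 0.065 ± 0.093, interval -0.16 to 0.29). For vmhc the 4 libraries were the furthest apart of the 8 genes, with a highest level 1.40 times the lowest, at 142.5 and 101.7 CPM with the alfacalcidol label and 106.9 and 132.2 CPM with the vehicle label. Its log2 fold change was 0.030 ± 0.17 (interval -0.38 to 0.44), and alfacalcidol replicate 1 stood with vehicle replicate 2 and alfacalcidol replicate 2 with vehicle replicate 1. The same pairs stood together for krt4, a keratin of the skin surface, at 12562 and 19746 CPM with the alfacalcidol label and 20498 and 12629 CPM with the vehicle label.

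The paralog myh7ba had 9.10 and 8.39 CPM with the alfacalcidol label and 8.02 and 9.01 CPM with the vehicle label (log2 fold change 0.037 ± 0.13, interval -0.27 to 0.35). The other, myh7bb, had 92.8 and 75.6 CPM with the alfacalcidol label and 76.1 and 92.9 CPM with the vehicle label. Its log2 fold change was -0.0054 ± 0.13 (interval -0.33 to 0.31), and the libraries split into the same pairs as for vmhc.

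**Figure D4:**
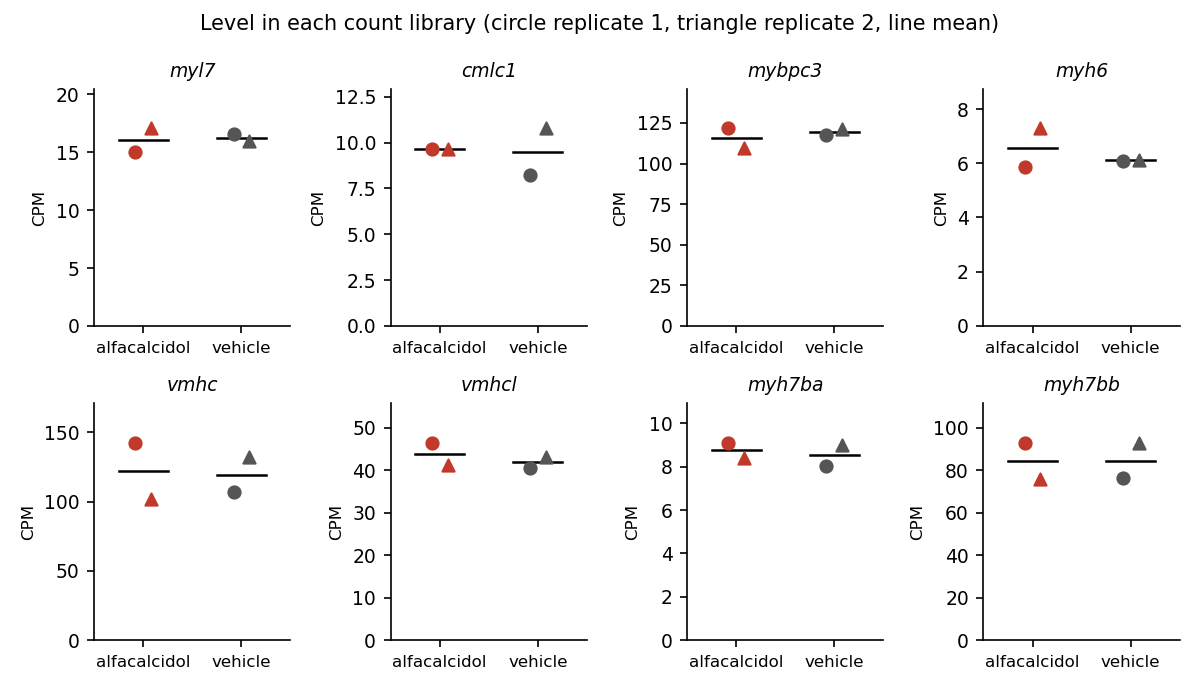
CPM (y axes, each from 0) of the 8 cardiac myosin genes in the libraries labelled alfacalcidol (left) and vehicle (right), with a circle for replicate 1, a triangle for replicate 2 and a line at the mean of the label. The labels overlap in all 8 genes, and vmhc has the widest spread, its highest level being 1.40 times the lowest.

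Summed over the 8 genes, the libraries labelled alfacalcidol had 443 and 371 CPM and those labelled vehicle 380 and 432 CPM. The means were 407 ± 51.3 and 406 ± 36.3 CPM (SD, n = 2 each), a difference of 0.946 CPM (exact permutation p 1, two-sided). The same sum was 83208 CPM in the authors' deposited table, 8.32% of reads. The log2 ratio of myh6 to vmhc and vmhcl together was -5.01 and -4.29 with the alfacalcidol label and -4.60 and -4.84 with the vehicle label. The difference between the labels was 0.065 (exact permutation p 1, two-sided), and with 2 libraries against 2 that test cannot go below 0.333. That log2 ratio was -8.86 in the authors' deposited table. Markers did not bear out the label heart in the libraries, so the ratio is not read there as atrium against ventricle.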

How the data were processed

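The authors deposited 1 table with log2 fold changes, log2 CPM levels and p-values for 14962 genes, with CASAVA, TopHat2, featureCounts and edgeR on GRCz10 named in the submitters' processing notes. Raw read counts of 31462 Ensembl genes in 4 libraries were deposited by the authors. The sources used here name no tool versions and no rule for strand or for reads that match several genes. CPM from the table is 2 to the power of its log2 CPM.

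Genes were found by symbol in the table and joined to the counts by gene ID. For 4 of the 8 the separate table of gene names gives another symbol or case (vmhc is MYH6 and vmhcl is MYH7 there), so only the deposited symbols were used. The counts went into edgeR 4.0.16 under R 4.3.3 (TMM, filterByExpr, quasi-likelihood F-test, two-sided, Benjamini-Hochberg over 22428 genes, threshold 0.05), after the script was tested on simulated data. DESeq2 1.42.0 was an alternative, with other scalings, no low-count filter, the replicate number as a block and each library left out. Marker levels in libraries are CPM by total count, and those of the 8 genes are TMM-scaled.

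The naming rule took all 8 genes, up to 6 called genes per list by lowest p and the 3 uncalled with most reads, and for myl7 and vmhcl the 3 abundant genes nearest in fold change. The genes and lists were chosen with earlier results of these data known. No sequences are printed.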

Additional observations from a re-analysis of the deposited data

How the results depend on the processing

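In the authors' deposited table the count of genes called lower was 1 of 8. It became 2 at an adjusted p of 0.1, where myl7 joined, and 0 with a 2-fold minimum. At an adjusted p of 0.01, with the adjustment recomputed or with 1 row per symbol, it stayed at 1. No gene was called higher at any threshold tried. Centring on all genes put myh6 at -0.66 and turned no sign of the 8. Centred on genes at a log2 CPM of 10 or more, the log2 fold changes in the authors' deposited table came to -0.27 for myh6, -0.076 for myl7, -0.015 for cmlc1, 0.066 for mybpc3, 0.17 for vmhcl, 0.20 for myh7ba, 0.28 for vmhc and 0.44 for myh7bb. In the count libraries 0 of the 8 genes were called under any alternative. With the replicate number as a block edgeR called 0 genes of all, and the log2 fold change of myh6 was 0.099. Replicate 1 minus 2 correlated at -0.471 across genes between the labels, so the numbers do not pair the libraries; a block on the crossed pairs, added after the data were seen, called 7 genes of all and 0 of the 8. Rescaling, filter, DESeq2 and both blocks kept the sign of the 8 genes in all 48 log2 fold changes, which are refits of the same 4 libraries. Leaving out 1 library at a time turned signs, within ranges of -0.11 to 0.068 for myl7, -0.23 to 0.25 for vmhc, -0.024 to 0.15 for vmhcl, -0.062 to 0.25 for myh6, -0.045 to 0.13 for myh7ba, -0.16 to 0.15 for myh7bb, -0.16 to 0.24 for cmlc1 and -0.13 to 0.024 for mybpc3. The difference in the summed CPM then ran from -35.4 to 37.2 and that in the log2 ratio of myh6 to vmhc and vmhcl together from -0.29 to 0.43. Where 1 library was left, it was taken to vary like the others. The table has no values per library, so none could be left out there.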
